A study of Homo sapiens with 6 samples.

Results

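The genes described here belong to the Wnt pathway: ligands, receptors, inhibitors, signal transducers and nuclear factors. They were chosen by symbol as a list of 46 genes, with earlier results of these data known. Of these genes, 45 were found among the 30727 gene rows of the files. WNT3 was not analysed here. The libraries hold poly(A) RNA of PANC-1 cells, an established human line grown from a pancreatic ductal carcinoma. In 3 libraries the cells carry the siRNA label SUV420H2 knockdown, and in 3 the siRNA label control. The replicate numbers used below follow the order of the samples and are not given by the labels. SUV420H2 is the older name of KMT5C, a methyltransferase that acts on histone H4. Cells of both groups are of the same line, with no other agent named; what the control siRNA was, which sequence was targeted and when the cells were taken are not stated. Nothing in the labels separates the libraries by culture, so p-values here reflect the spread between these samples only, which may be technical.

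Wnt proteins are secreted lipid-modified ligands that bind Frizzled receptors together with a co-receptor. In the canonical branch, LRP5 or LRP6 is engaged, Dishevelled proteins are recruited, and a destruction complex built on AXIN and APC stops degrading beta-catenin, which then acts with TCF and LEF factors in the nucleus. Other branches run through ROR and RYK receptors and steer cell shape and movement. The pathway is known for its part in pancreatic development and for RNF43, an inhibitor of Frizzled that is often mutated in pancreatic tumours.

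The libraries held 27007534 to 38022772 counted reads in the knockdown cells and 20863594 to 25931995 in the controls. KMT5C itself had 6.03, 6.11 and 5.85 CPM (counts scaled to library size by TMM) in the knockdown libraries and 9.54, 7.22 and 12.7 CPM in the controls, a log2 fold change of −0.72 (SE 0.163, edgeR adjusted p = 0.00227). Control replicate 3 stood apart from the other controls: its counts differed from theirs by a chi-square of 11.3 and 13.6 per degree of freedom, against 1.55 between the other two, and without it the KMT5C value was −0.50. The fall of KMT5C did not pass against a 1.5-fold change (edgeR adjusted p = 0.305; lowest over the alternatives 4.59e-10). The epithelial keratins KRT8, KRT18 and KRT19 were abundant in every library, and 10 duct and epithelial genes summed to 6240 to 6450 CPM in the knockdown and 2670 to 3230 CPM in the controls, most of it KRT8 and KRT18. Of the 8 of these genes tested, 5 rose and 3 fell (MUC1, −1.83; KRT19, −0.32; SOX9, −0.14). The duct gene CFTR had 0 reads in all knockdown libraries together and 4 in the controls. Summed markers of other cell types were 35.1 to 40.1 CPM in the knockdown and 50.2 to 53.7 CPM in the controls for 6 neuron genes (most of it MAP2), 127 to 134 against 92.9 to 104 CPM for 7 microglia and leukocyte genes (most of it CD68), 8.04 to 8.57 against 2.16 to 2.31 CPM for 6 fibroblast genes (most of it PDGFRB), 4.32 to 4.75 against 1.12 to 1.35 CPM for 6 endothelial genes (most of it ESAM), and 0.496 to 0.773 against 0.0963 to 0.28 CPM for 6 astrocyte genes, of which AQP4 had no read. Their part in the results below was not tested. In bulk RNA, fewer cells of a kind and less RNA per cell cannot be told apart.

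In every role with more than 1 gene past the threshold, some members were higher in the knockdown cells and others lower. Of the 45 genes found, 42 passed the filter on low counts; WNT3A, WNT7A and NKD1 did not. In edgeR's quasi-likelihood test with Benjamini-Hochberg adjustment over all genes, 16 rose, 16 fell and 10 did not pass the threshold of 0.05. The background is high: 67.2% of the 15190 genes tested were called, 33.1% as higher and 34.2% as lower. The groups did not overlap for 15 members that were higher in the knockdown and 17 that were lower; over all genes tested this held for 71.3%, with 35.0% higher and 36.3% lower. The median log2 fold change of the 42 members was −0.01, as was that of all genes (−0.01). By role it was 0.53 for ligands, −0.12 for Frizzled receptors, 0.20 for co-receptors and other receptors, −0.39 for secreted inhibitors and 0.15 for feedback inhibitors. It was −0.04 for the destruction complex, −0.39 for Dishevelled genes, 0.72 for nuclear factors and −0.73 for secretion genes. Changes of at least 2-fold that passed the test were found for 12 of the 42 members, against 14% of all genes tested, and 7 of these 12 were ligands. Tested against a 1.5-fold change with glmTreat, 13 members and 2998 genes (19.7%) passed. These members were WNT4, WNT5A, WNT6, WNT9A, WNT11, WNT16, FZD1, FZD5, DKK1, LEF1, TCF7, TCF7L1 and PORCN, and the other 19 called members did not pass it. An exact two-sided permutation test of a single gene cannot go below p = 0.1 with 3 libraries a group.

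**Figure D1:**
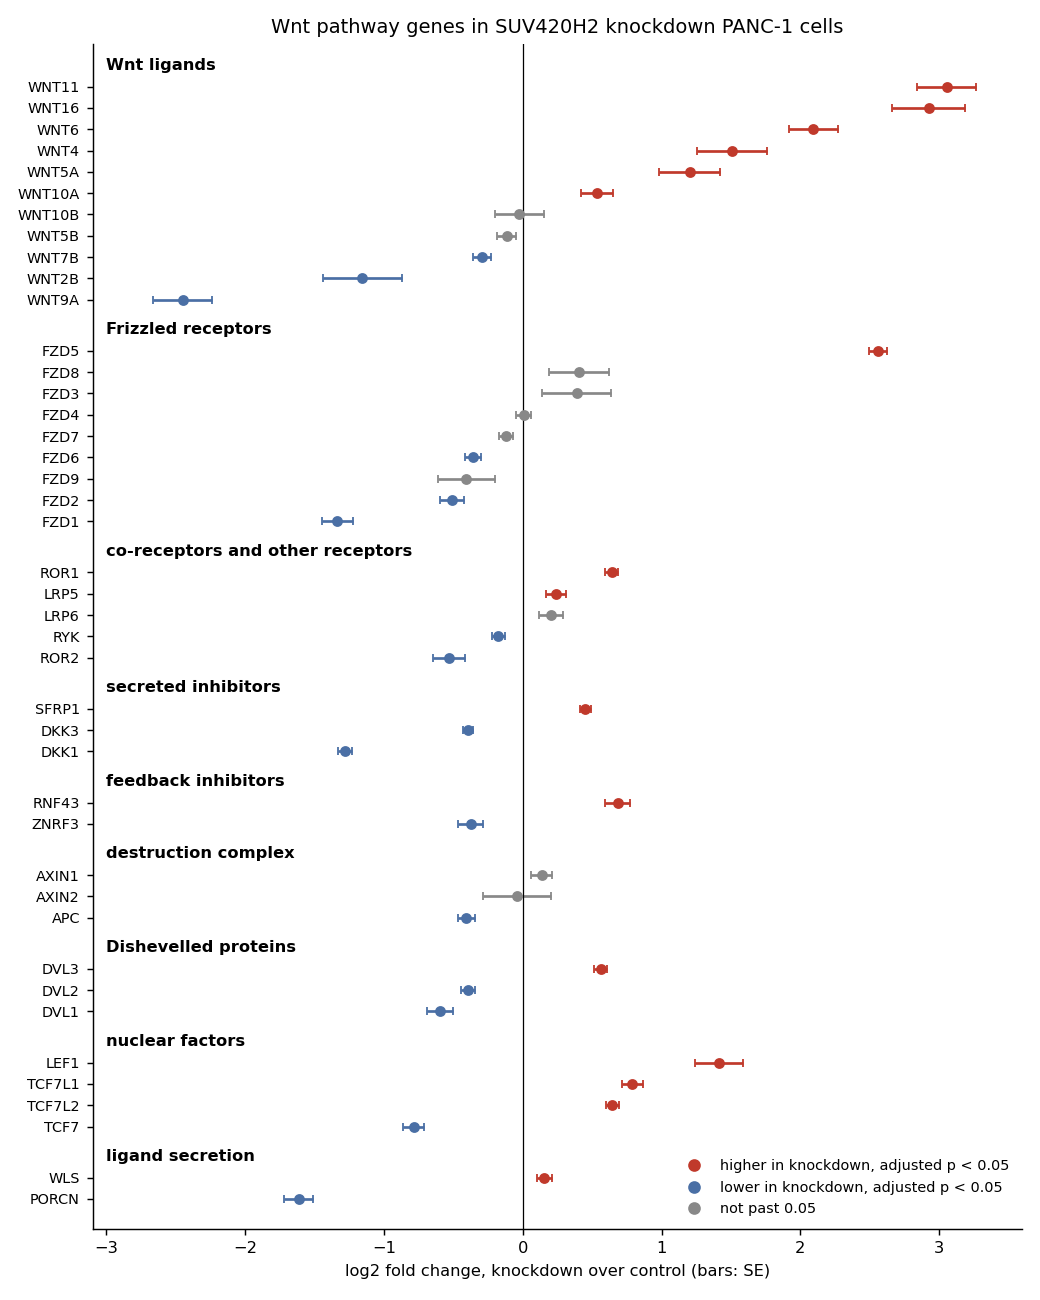
Log2 fold change (knockdown over control) with its SE for the 42 Wnt genes tested, grouped by role; colour marks the edgeR call. WNT11 (3.05), WNT16 (2.92) and FZD5 (2.56) lie farthest to the right, and WNT9A (−2.45) and PORCN (−1.62) farthest to the left.

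Promoter sequences of 5 members are shown first: WNT6 and WNT10A are neighbours that both rose, and WNT9A, FZD5 and DKK1 changed by more than 2-fold as a ligand, a receptor and an inhibitor. The sequences run 5′ to 3′ from 250 bases before to 50 after an annotated start, from RefSeq, build GRCh38.p14. They lie at chr2:218859555-218859854 (plus strand, WNT6), chr2:218880602-218880901 (plus strand, WNT10A), chr1:227947883-227948182 (minus strand, WNT9A), chr2:207769857-207770156 (minus strand, FZD5) and chr10:52314031-52314330 (plus strand, DKK1). The WNT10A window lies inside the span of its gene, which begins at 218874116. Capitals mark matches on either strand to a TCF/LEF motif (the letters CTTTG, then A or T at each of the next 2 positions) or to the E-box CAGGTG.
WNT6: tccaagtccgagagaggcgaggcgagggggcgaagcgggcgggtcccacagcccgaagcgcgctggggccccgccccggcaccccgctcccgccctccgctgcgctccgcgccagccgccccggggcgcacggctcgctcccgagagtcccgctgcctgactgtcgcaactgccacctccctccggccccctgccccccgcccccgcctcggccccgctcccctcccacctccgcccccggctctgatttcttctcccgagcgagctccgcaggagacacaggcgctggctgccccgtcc
WNT10A: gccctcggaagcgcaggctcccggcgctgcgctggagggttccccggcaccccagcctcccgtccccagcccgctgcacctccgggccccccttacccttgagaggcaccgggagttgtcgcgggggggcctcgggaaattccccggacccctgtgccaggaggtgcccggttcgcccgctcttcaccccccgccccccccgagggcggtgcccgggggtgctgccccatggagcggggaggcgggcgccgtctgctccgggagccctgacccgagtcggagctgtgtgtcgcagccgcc
WNT9A: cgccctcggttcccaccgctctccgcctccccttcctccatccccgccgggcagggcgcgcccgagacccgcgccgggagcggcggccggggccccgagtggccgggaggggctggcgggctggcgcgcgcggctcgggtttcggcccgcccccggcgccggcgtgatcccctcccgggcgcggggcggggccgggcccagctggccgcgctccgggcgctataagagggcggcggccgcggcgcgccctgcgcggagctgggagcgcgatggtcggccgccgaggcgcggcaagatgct
FZD5: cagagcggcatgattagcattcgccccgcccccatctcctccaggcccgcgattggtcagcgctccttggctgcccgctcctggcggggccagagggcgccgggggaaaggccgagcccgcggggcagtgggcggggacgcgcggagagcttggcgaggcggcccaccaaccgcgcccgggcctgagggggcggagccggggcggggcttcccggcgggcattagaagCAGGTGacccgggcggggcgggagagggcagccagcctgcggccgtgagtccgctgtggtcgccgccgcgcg
DKK1: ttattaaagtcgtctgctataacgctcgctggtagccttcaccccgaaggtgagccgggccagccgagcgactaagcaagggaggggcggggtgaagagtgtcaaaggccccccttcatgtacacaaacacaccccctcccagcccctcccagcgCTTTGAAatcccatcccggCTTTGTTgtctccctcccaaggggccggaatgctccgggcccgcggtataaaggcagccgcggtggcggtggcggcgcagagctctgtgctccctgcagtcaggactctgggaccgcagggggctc
The DKK1 window held 2 matches to the TCF/LEF motif, and the FZD5 window held 1 E-box; the windows of WNT6, WNT10A and WNT9A held neither. Promoter windows were at hand for 32 of the 45 members, 42 windows in all. Of these, 3 held the TCF/LEF motif (of DKK1, TCF7 and TCF7L2), against 13.8% of the 35116 windows in the table, and 8, of 7 members, held the E-box, against 20.6%. The windows of the members were rich in G and C, with a median of 67.5%, against 58.7% over all windows; those of WNT9A (83%), WNT6 (78%), FZD5 (77%) and WNT10A (76.7%) lay above that median and DKK1 (63.7%) below it. A match is a run of letters and not a bound site.

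Wnt ligands made up the largest role and held the largest changes. Of the 13 found, 11 were tested, of which 6 rose, 3 fell and 2 did not pass (81.8% called, against 67.2% of all genes tested). Per length, the 6 that rose ranked between 4 and 11 among the 13 ligands in the controls, and the most abundant ligand fell slightly. WNT11, a ligand of the non-canonical branch that guides cell movement, had 4.44, 3.35 and 3.36 CPM in the knockdown libraries and 0.399, 0.482 and 0.470 CPM in the controls. The log2 fold change came to 3.05 (SE 0.213, 8.3-fold, edgeR adjusted p = 2.91e-07), from 362 reads in the knockdown and 32 in the controls.

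WNT16, known from bone and joint tissue, had 1.80, 1.47 and 1.90 CPM in the knockdown libraries against 0.240, 0.289 and 0.157 CPM in the controls. This was a log2 fold change of 2.92 (SE 0.263, edgeR adjusted p = 2.17e-06) on 166 knockdown reads and 16 control reads. WNT16 passed the filter on low counts only through the knockdown libraries, as its controls held 6, 6 and 4 reads. WNT6, an epithelial ligand, was the ligand with the largest gain in CPM: it stood at 19.4, 20.4 and 18.8 CPM in the knockdown libraries and at 3.79, 3.23 and 6.54 CPM in the controls. Control replicate 3 was the highest of the controls, and the groups lay far apart. On the log2 scale the change was 2.09 (SE 0.176, 4.26-fold, edgeR adjusted p = 1.31e-06), and 2.46 without that library.

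WNT10A, a ligand of skin appendages and teeth, is the neighbour of WNT6 on chromosome 2 (GRCh38; WNT6 from 218859805 to 218874233, WNT10A from 218874116 to 218893928). The annotated spans overlap by 118 bases on the same strand, so reads there cannot be assigned with certainty. WNT10A had 15.3, 14.0 and 13.2 CPM in the knockdown libraries and 8.46, 9.06 and 11.8 CPM in the controls, with a log2 fold change of 0.53 (SE 0.118, edgeR adjusted p = 0.00195). It thus rose by less than WNT6, and did not pass the test against a 1.5-fold change (adjusted p = 1; lowest over the alternatives 7.39e-08).

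WNT4, which acts in kidney and gonad development, had 1.44, 1.77 and 2.13 CPM in the knockdown libraries and 0.719, 0.385 and 0.705 CPM in the controls (2.84-fold higher, SE 0.252 on the log2 scale, edgeR adjusted p = 0.000287), on 167 and 44 reads. WNT5A, the prototype of the non-canonical ligands, had 1.33, 1.66 and 1.93 CPM in the knockdown and 0.799, 0.722 and 0.587 CPM in the controls (1.20, SE 0.221, edgeR adjusted p = 0.000577), on 154 and 50 reads. Its close relative WNT5B was far more abundant, with 45.1, 46.1 and 42.9 CPM in the knockdown and 46.7, 45.0 and 53.6 CPM in the controls. The groups overlapped and WNT5B did not pass (−0.12, SE 0.0688, edgeR adjusted p = 0.154; range over the alternatives 0.0599 to 1). The upper end is from the test against a 1.5-fold change.

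The fall of WNT9A was the largest among the members. WNT9A, a ligand with a part in joint and blood cell development, had 1.67, 2.32 and 1.098 CPM in the knockdown libraries and 8.30, 7.85 and 11.3 CPM in the controls, a log2 fold change of −2.45 (SE 0.212, edgeR adjusted p = 1.58e-06). Its neighbour on chromosome 1, WNT3A, the classic canonical ligand, lies 59065 bases away and had only 9 reads in the knockdown and 3 in the controls. With no filter the log2 fold change of WNT3A was 1.09 (edgeR adjusted p = 0.443). WNT2B had 0.287, 0.221 and 0.366 CPM in the knockdown and 0.599, 0.626 and 0.744 CPM in the controls (−1.16, SE 0.286, edgeR adjusted p = 0.00405); it rests on 28 and 47 reads, its span overlaps the gene ST7L, and the call did not hold against a 1.5-fold change (adjusted p = 0.0582; lowest over the alternatives 0.00114).

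WNT7B, a ligand of epithelia, was the most abundant ligand per length in all 6 libraries. It had 137, 130 and 130 CPM in the knockdown libraries and 155, 151 and 181 CPM in the controls, a fall of a log2 fold change of −0.30 (SE 0.0649, edgeR adjusted p = 0.0019). WNT10B had 2.61, 1.84 and 2.56 CPM in the knockdown and 2.84, 1.93 and 2.39 CPM in the controls, and the groups overlapped (−0.02, SE 0.179, edgeR adjusted p = 0.913). WNT7A was below the filter, with 25 reads in the knockdown and 3 in the controls (0, 1 and 2). With no filter its log2 fold change was 2.51 (edgeR adjusted p = 0.00291). The p-values of that fit are not on the scale of the main fit. WNT6 had an edgeR adjusted p of 5.27e-52 there against 1.31e-06 in the main fit, and WLS 0.0967 against 0.0287.

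**Figure D2:**
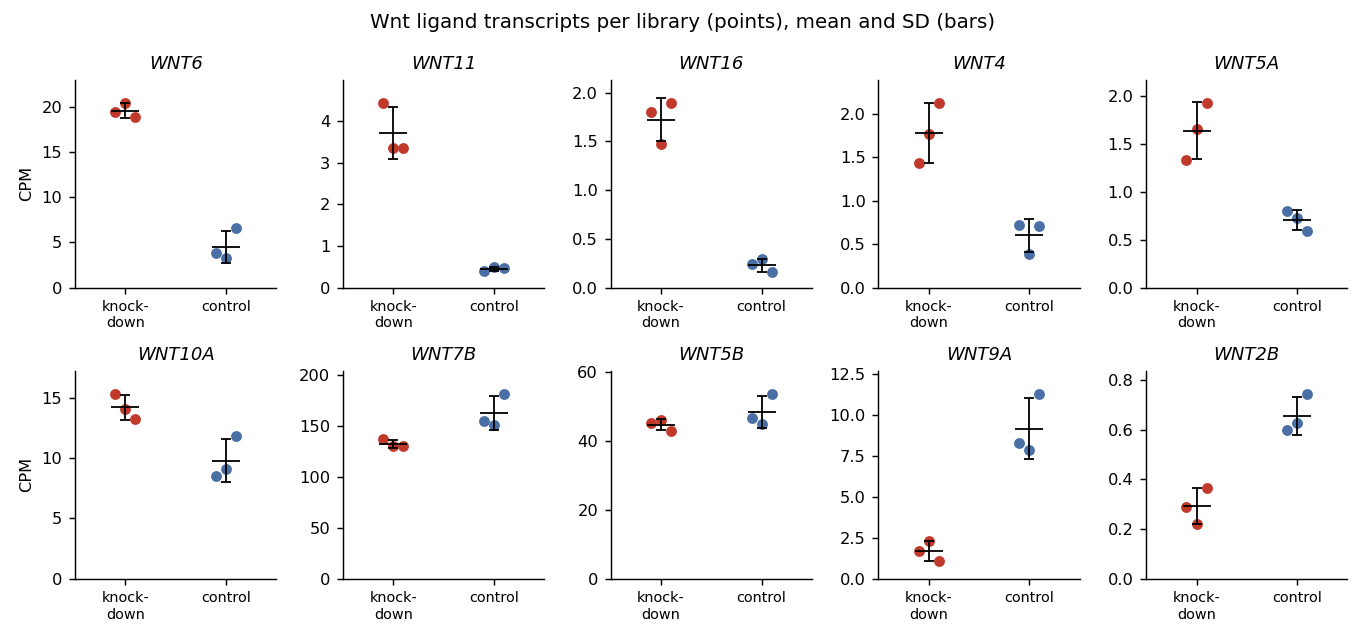
TMM-scaled CPM of 10 Wnt ligands in each library (points) with the mean and SD of the 3 libraries per group (bars), knockdown left and control right, each panel on its own axis from 0. WNT6, WNT11, WNT16, WNT4, WNT5A and WNT10A lay above every control in each of the 3 knockdown libraries, WNT7B, WNT9A and WNT2B lay below, and WNT5B overlapped.

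The shares of the ligands differed more between the groups than their sum. Levels of different genes are comparable only per length, so the deposited RPKM (reads per gene length and library size, adjusted by the authors with a size factor) were summed over the 13 ligands. The sums were 75.8, 74.4 and 71.4 RPKM in the knockdown libraries and 71.4, 68.9 and 84.6 RPKM in the controls, and overlapped. WNT7B made up 44.9 ± 0.922% of the sum in the knockdown and 53.7 ± 1.06% in the controls, and WNT5B 24.6 ± 0.511% and 25.9 ± 0.678% (SD, n = 3 each). WNT6 accounted for 15.3 ± 0.53% in the knockdown and 3.36 ± 0.885% in the controls, and WNT9A for 1.81 ± 0.626% and 9.46 ± 0.742%. WNT9A was the third most abundant ligand in the controls and WNT6 the third in the knockdown. Taken over reads with no division by length, WNT6 had 8.72% in the knockdown and 1.85% in the controls. These shares were not tested.

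Of the ligand secretion genes, WLS carries Wnt proteins to the cell surface and PORCN attaches the lipid that they need. PORCN had 2.53, 2.24 and 2.26 CPM in the knockdown libraries and 7.11, 6.94 and 7.64 CPM in the controls. The fall was −1.62 on the log2 scale (SE 0.105, edgeR adjusted p = 1.64e-07), and each knockdown library lay well below each control. WLS had 29.1, 28.4 and 29.0 CPM in the knockdown and 25.1, 26.2 and 26.3 CPM in the controls (0.16, SE 0.0559, edgeR adjusted p = 0.0287). This small rise did not pass without any of knockdown replicates 1, 2 and 3 or control replicate 1 (adjusted p 0.0994, 0.0545, 0.088 and 0.1), with DESeq2 (0.0624) or with no filter (0.0967). Its adjusted p ranged from 0.00907 to 1 over the alternatives, with the upper end from the test against a 1.5-fold change.

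Among the 9 Frizzled receptors, FZD5 alone rose and FZD1, FZD2 and FZD6 fell, while 5 did not pass (44.4% called, against 67.2% of all genes tested). FZD5, which binds canonical ligands and WNT5A, had 78.7, 77.8 and 75.1 CPM in the knockdown libraries and 13.7, 11.99 and 13.4 CPM in the controls. On the log2 scale the change was 2.56 (SE 0.063, 5.9-fold, edgeR adjusted p = 1.81e-10). The spread within either group was small beside the distance between them, and the log2 fold change stayed between 2.51 and 2.60 over the 15 alternatives.

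FZD1 had 2.50, 2.76 and 2.29 CPM in the knockdown libraries and 6.51, 5.83 and 6.70 CPM in the controls (−1.34, SE 0.112, edgeR adjusted p = 1.26e-06). FZD2, a receptor of the WNT5A branch, had 23.1, 22.6 and 22.1 CPM in the knockdown and 30.5, 28.8 and 37.1 CPM in the controls (−0.51, SE 0.0884, edgeR adjusted p = 0.000361). FZD6, a receptor of planar cell polarity, had 42.2, 42.8 and 42.4 CPM in the knockdown and 56.2, 57.1 and 50.2 CPM in the controls (−0.36, SE 0.0587, edgeR adjusted p = 0.000242). The falls of FZD2 and FZD6 did not pass against a 1.5-fold change (adjusted p = 1 for each; lowest over the alternatives 3.57e-10 and 1.81e-09).

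FZD7, the most abundant Frizzled per length by group mean though below FZD6 in control replicates 1 and 2, had 49.4, 49.8 and 49.4 CPM in the knockdown and 53.2, 51.9 and 56.1 CPM in the controls. The groups did not overlap, but the gene narrowly missed the threshold (−0.12, SE 0.0499, edgeR adjusted p = 0.0546; range over the alternatives 0.0524 to 1). The upper end is from the test against a 1.5-fold change. FZD4 was at 0.01 (SE 0.054, edgeR adjusted p = 0.926), and its span overlaps the abundant gene PRSS23, so its reads are less certain. FZD3 (0.39), FZD8 (0.40) and FZD9 (−0.41) had log2 fold changes with SE of 0.249, 0.215 and 0.205; they did not pass (edgeR adjusted p = 0.19, 0.117 and 0.102) but did without control replicate 2 (0.0396, 0.0265 and 0.0144). Without control replicate 3 the log2 fold changes were 0.26, 0.49 and −0.0888 (edgeR adjusted p = 0.411, 0.0537 and 0.636). FZD9 also passed with no filter on low counts (−0.41, edgeR adjusted p = 0.0152). FZD3 rests on 93 reads in the knockdown and 53 in the controls, and FZD8 on 192 and 108.

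The summed Frizzled RPKM were 54.6, 54.3 and 53.5 in the knockdown libraries and 51.9, 50.8 and 51.6 in the controls, while the makeup differed more. FZD5 held 21.3 ± 0.281% of the sum in the knockdown and 3.74 ± 0.216% in the controls (SD, n = 3 each). FZD6 held 19.6 ± 0.26% and 26.1 ± 2.13%, FZD7 23.3 ± 0.242% and 26.3 ± 0.722%, and FZD2 10.7 ± 0.128% and 15.8 ± 1.97%, in the knockdown and in the controls. By group mean, FZD5 was the second most abundant Frizzled in the knockdown cells and the fifth in the controls. Without division by length its share was 27.1% in the knockdown and 5.21% in the controls.

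**Figure D3:**
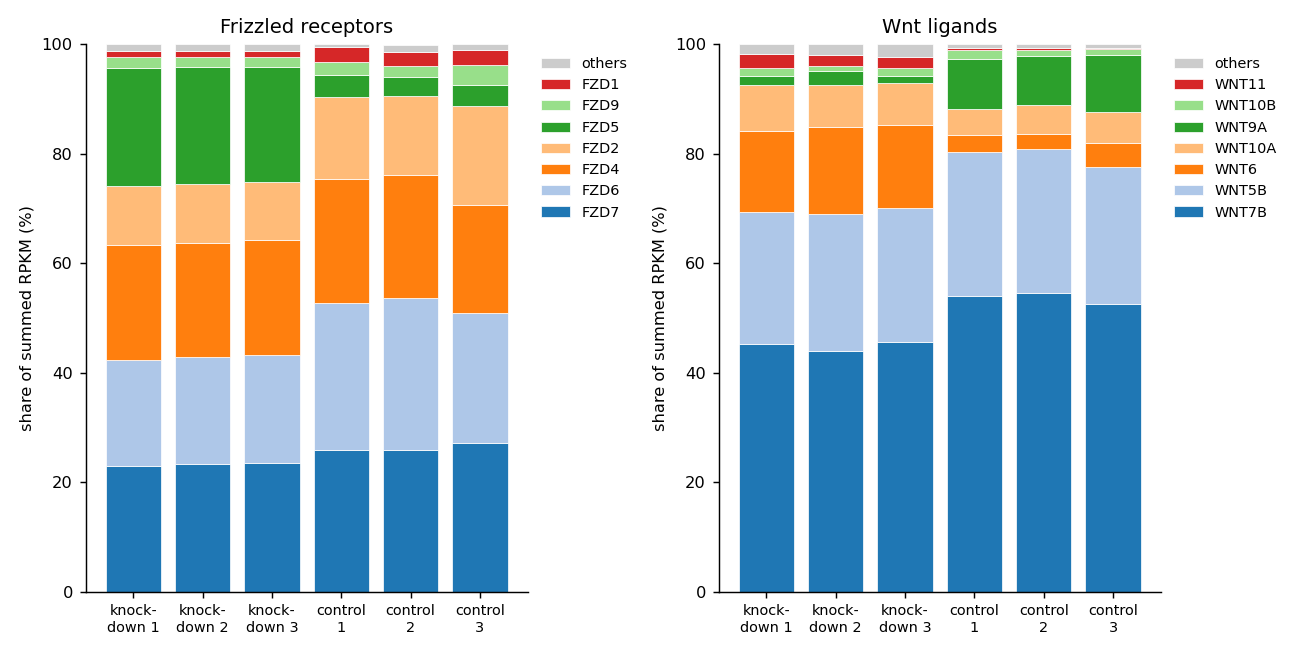
Share of each gene in the summed RPKM of the 9 Frizzled receptors and the 13 Wnt ligands, as stacked bars for the 6 libraries; genes that stay below 1.5% in every library are pooled as others. FZD5 fills 21.0 to 21.5% of the Frizzled bar in the knockdown and 3.5 to 3.92% in the controls, and WNT6 fills 14.8 to 15.8% and 2.68 to 4.36% of the ligand bar.

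Co-receptors and other receptors changed less, with 2 of 5 up, 2 down (80.0% called, against 67.2% of all genes tested) and no change of 2-fold. LRP5, the canonical co-receptor, was per length the most abundant receptor among the members (91.8 ± 4.89 RPKM in the knockdown and 76.7 ± 7.49 RPKM in the controls, SD, n = 3 each). Its CPM were 523, 532 and 480 in the knockdown and 412, 402 and 486 in the controls, where control replicate 3 overlapped the knockdown (log2 fold change 0.24, SE 0.0698, edgeR adjusted p = 0.0103). Without knockdown replicate 2 the call was lost (adjusted p = 0.0521; range over the alternatives 2.63e-09 to 1, the upper end from the test against a 1.5-fold change), and without control replicate 3 the value was 0.33. LRP6, its paralog, missed the threshold (0.20, SE 0.0844, edgeR adjusted p = 0.0524). It passed under 10 of the 15 alternatives, among them without knockdown replicate 1 (0.0461), without control replicate 1 (0.0233) and without control replicate 2 (0.0334), with adjusted p from 0.00994 to 1 over all. The upper end is from the test against a 1.5-fold change. Without control replicate 3 the log2 fold change of LRP6 was 0.0967 (adjusted p = 0.0906).

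The ROR receptors, tyrosine kinase-like receptors for WNT5A, went opposite ways. ROR1 had 106, 111 and 108 CPM in the knockdown libraries and 71.2, 72.4 and 65.7 CPM in the controls (0.64, SE 0.0497, edgeR adjusted p = 6.91e-07). ROR2, far less abundant, had 3.11, 3.13 and 2.73 CPM in the knockdown and 4.35, 3.90 and 4.66 CPM in the controls (−0.53, SE 0.117, edgeR adjusted p = 0.00195). RYK, a receptor with a Wnt-binding domain, had 119, 123 and 122 CPM in the knockdown and 145, 132 and 134 CPM in the controls (−0.18, SE 0.0468, edgeR adjusted p = 0.00623), a fall that did not pass without control replicate 1 (adjusted p = 0.0529; range 2.54e-05 to 1). The upper end is from the test against a 1.5-fold change.

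Of the secreted inhibitors, DKK1 and DKK3 fell and SFRP1 rose. DKK1, which blocks LRP5 and LRP6 and whose gene is known as a target of the pathway, was the most abundant member per length in the controls, at 283 ± 15.5 RPKM, against 118 ± 5.5 RPKM in the knockdown (SD, n = 3 each). Its CPM were 222, 205 and 223 in the knockdown libraries and 553, 527 and 502 in the controls. On the log2 scale the change was −1.28 (SE 0.0505, edgeR adjusted p = 4.55e-09) and lay between −1.32 and −1.24 under every alternative. DKK3, a relative whose part in Wnt signalling is less clear, had 224, 220 and 221 CPM in the knockdown and 288, 287 and 298 CPM in the controls (−0.39, SE 0.0384, edgeR adjusted p = 4.27e-06). SFRP1, a decoy that binds Wnt proteins, had 139, 140 and 142 CPM in the knockdown and 103, 102 and 103 CPM in the controls (0.45, SE 0.0397, edgeR adjusted p = 1.92e-06).

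RNF43 and ZNRF3 are paired ubiquitin ligases that remove Frizzled from the cell surface. RNF43 had 9.66, 9.82 and 9.28 CPM in the knockdown libraries and 5.47, 5.97 and 6.46 CPM in the controls (0.68, SE 0.0894, edgeR adjusted p = 4.44e-05); its span overlaps TSPOAP1-AS1 by 1228 bases. ZNRF3 went the other way, with 12.2, 10.4 and 10.0 CPM in the knockdown and 14.9, 13.1 and 14.4 CPM in the controls (−0.38, SE 0.0929, edgeR adjusted p = 0.00398). NKD1, which binds Dishevelled and restrains the pathway, was below the filter, with 9 reads in the knockdown and 17 in the controls. With no filter its log2 fold change was −1.31 (edgeR adjusted p = 0.0825). NKD2, listed with beta-catenin turnover and named here after its values were seen, rose by 1.16 (SE 0.157, edgeR adjusted p = 6.02e-05).

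In the destruction complex, APC fell and the AXIN genes did not pass. APC, the tumour suppressor that holds beta-catenin in the complex, had 36.1, 37.0 and 34.0 CPM in the knockdown libraries and 47.6, 50.3 and 44.2 CPM in the controls (−0.41, SE 0.0626, edgeR adjusted p = 0.000152). AXIN1, the scaffold, had 78.5, 80.3 and 75.0 CPM in the knockdown and 67.2, 65.1 and 80.5 CPM in the controls, where replicate 3 overlapped (0.13, SE 0.0737, edgeR adjusted p = 0.127). Without control replicate 3 AXIN1 passed at 0.23 (adjusted p = 1.14e-05; range 1.14e-05 to 1). The upper end is from the test against a 1.5-fold change. AXIN2, the inducible scaffold and the most used readout of canonical signalling, was low: 0.783, 1.25 and 0.765 CPM in the knockdown and 0.838, 1.06 and 0.940 CPM in the controls. The groups overlapped (−0.04, SE 0.243, edgeR adjusted p = 0.893), on 87 reads in the knockdown and 67 in the controls.

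The Dishevelled genes, which relay the signal from Frizzled, moved in opposite directions, DVL3 higher and DVL1 and DVL2 lower. DVL3 had 198, 206 and 191 CPM in the knockdown libraries and 131, 132 and 141 CPM in the controls (0.56, SE 0.0478, edgeR adjusted p = 1.42e-06). DVL1 had 125, 122 and 117 CPM in the knockdown and 173, 160 and 218 CPM in the controls (−0.60, SE 0.0931, edgeR adjusted p = 0.000165; −0.46 without control replicate 3). DVL2 had 54.4, 55.0 and 53.7 CPM in the knockdown and 71.5, 68.1 and 74.4 CPM in the controls (−0.39, SE 0.0492, edgeR adjusted p = 3.15e-05). Per length, DVL3 made up 39.6 ± 0.656% of the Dishevelled sum in the knockdown and 23.6 ± 1.61% in the controls, and DVL1 41.8 ± 0.656% and 55 ± 2.97% (SD, n = 3 each). None of the 3 passed against a 1.5-fold change (adjusted p = 1 for DVL2 and DVL3 and 0.697 for DVL1; lowest over the alternatives 1.53e-09, 8.79e-23 and 4.46e-22).

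All 4 nuclear factors passed, 3 higher and TCF7 lower, where 67.2% of all genes tested were called. TCF7L2, a main partner of beta-catenin in gut epithelium, had 104, 107 and 107 CPM in the knockdown libraries and 70.8, 65.6 and 66.6 CPM in the controls (0.64, SE 0.0461, edgeR adjusted p = 3.61e-07). TCF7L1, which often acts as a repressor, had 69.5, 74.7 and 72.0 CPM in the knockdown and 37.2, 40.9 and 46.9 CPM in the controls (0.79, SE 0.0751, edgeR adjusted p = 3.51e-06). These 2 genes supplied most of the summed TCF and LEF RPKM, which was 42.9, 44.8 and 44.0 in the knockdown and 28.4, 28.2 and 30.5 in the controls.

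LEF1 was the scarcest of the 4, with 2.98, 2.46 and 2.79 CPM in the knockdown libraries and 1.12, 0.771 and 1.18 CPM in the controls (1.41, SE 0.175, edgeR adjusted p = 2.86e-05), on 265 and 74 reads. Its antisense neighbour LEF1-AS1 overlaps it by 1408 bases and had 33 reads in the knockdown and 9 in the controls; whether strand was used in counting is not given. TCF7 had 16.3, 16.7 and 15.4 CPM in the knockdown and 27.4, 25.7 and 30.3 CPM in the controls (−0.78, SE 0.0754, edgeR adjusted p = 3.75e-06). Its share of the summed RPKM was 5.79 ± 0.252% in the knockdown and 14.9 ± 0.559% in the controls (SD, n = 3 each). The span of TCF7 overlaps VDAC1, which had 20619 knockdown and 17799 control reads, so reads there are uncertain.

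**Figure D4:**
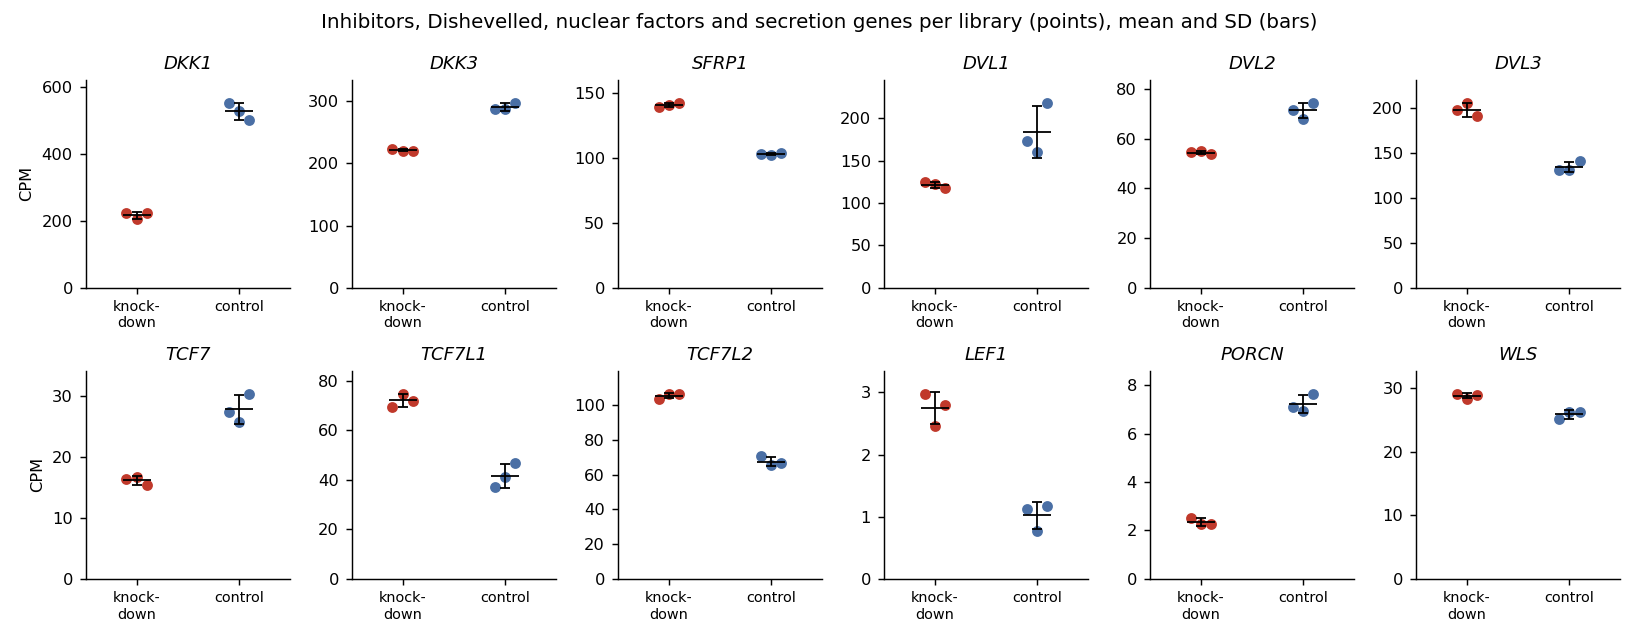
TMM-scaled CPM of inhibitors, Dishevelled genes, nuclear factors and secretion genes in each library (points) with the mean and SD of 3 libraries (bars), knockdown left and control right, each axis from 0. DKK1, DKK3, DVL1, DVL2, TCF7 and PORCN were below every control in each of the 3 knockdown libraries, and SFRP1, DVL3, TCF7L1, TCF7L2, LEF1 and WLS were above.

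Beyond the 46 genes, 112 other genes of the pathway were listed and 84 of them passed the filter on low counts: 38 rose, 24 fell and 22 did not pass. Over these 84 genes 73.8% were called, against 67.2% of all genes tested, and their median log2 fold change was 0.13. The lists were chosen with earlier results of these data known, so these shares describe the lists and test nothing. Of 4 other Frizzled and co-receptor genes, 2 were tested and both rose, as did both tested of 7 R-spondin and receptor genes (33.1% of all genes tested rose). PTK7, a pseudokinase co-receptor of the polarity branch, had 676, 657 and 653 CPM in the knockdown libraries and 274, 281 and 309 CPM in the controls (log2 fold change 1.20, SE 0.05, edgeR adjusted p = 6.05e-09). LRP4 rose by 0.87 (SE 0.0856, edgeR adjusted p = 4.65e-06). LGR4, a receptor for R-spondins, which shield Frizzled from RNF43 and ZNRF3, had 296, 308 and 306 CPM in the knockdown and 157, 159 and 148 CPM in the controls (0.97, SE 0.0439, edgeR adjusted p = 1.08e-08).

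LGR6, a relative of LGR4, also rose but was scarce, with 117 reads in the knockdown and 9 in the controls (3.24, SE 0.384, edgeR adjusted p = 2.04e-05; 4.13 without control replicate 3). LGR6 passed the filter on low counts only through the knockdown libraries. The R-spondin genes themselves, RSPO1 to RSPO4, were below the filter, with 1 to 8 reads each in the knockdown and 0 to 5 in the controls. Of the other ligands, WNT1, WNT2, WNT8A, WNT8B and WNT9B were also below it, with at most 9 reads each in a group.

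Among 7 other secreted and surface inhibitors tested, 4 rose and 2 fell (85.7% called, against 67.2% of all genes tested). NOTUM, an enzyme that strips the lipid from Wnt proteins, had 7.02, 6.62 and 5.49 CPM in the knockdown libraries and 1.04, 1.20 and 1.64 CPM in the controls (2.29, SE 0.169, edgeR adjusted p = 4.58e-07). CTHRC1, a secreted protein that favours the polarity branch, rose by 1.27 (SE 0.115, edgeR adjusted p = 2.36e-06). KREMEN1, a receptor for DKK1, fell (−1.11, SE 0.163, edgeR adjusted p = 0.000103; 106 reads in the knockdown and 172 in the controls). KREMEN2, of the same list and named here after its values were seen, rose by 1.15 (SE 0.151, edgeR adjusted p = 4.34e-05), on 2025 reads in the knockdown and 680 in the controls. SHISA2 fell (−0.29, SE 0.104, edgeR adjusted p = 0.0289), and its call was lost without knockdown replicate 2 (0.0944), knockdown replicate 3 (0.0545) or control replicate 1 (0.137) and with DESeq2 (0.141) or thinned libraries (0.445; range 0.015 to 1). The upper end is from the test against a 1.5-fold change.

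Of 18 genes of beta-catenin and its turnover, 7 rose and 5 fell (66.7% called, against 67.2% of all genes tested). CTNNB1, which encodes beta-catenin and is named here after its values were seen, rose by 0.25 (SE 0.0436, edgeR adjusted p = 0.000371). BTRC, the ubiquitin ligase subunit that marks beta-catenin for destruction, rose by 0.97 (SE 0.0584, edgeR adjusted p = 9.55e-08) and the kinase CSNK1D by 0.42 (SE 0.0443, edgeR adjusted p = 7.28e-06). AMER1, which recruits the complex to the membrane, fell (−0.90, SE 0.0694, edgeR adjusted p = 6.54e-07), as did APC2 (−0.67, SE 0.116, edgeR adjusted p = 0.000362).

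Of 16 nuclear cofactors, 8 rose and 4 fell (75.0% called, against 67.2% of all genes tested). TLE4, a corepressor that binds TCF factors, had 7.23, 7.80 and 6.25 CPM in the knockdown libraries and 1.24, 1.20 and 0.901 CPM in the controls (2.67, SE 0.153, edgeR adjusted p = 6.2e-08). TNIK, a kinase that acts on TCF7L2, rose by 1.73 (SE 0.118, edgeR adjusted p = 2.51e-07). PYGO1, which links beta-catenin complexes to chromatin, fell (−1.53, SE 0.274, edgeR adjusted p = 0.000469; 35 reads in the knockdown and 76 in the controls), as did BCL9, its partner (−0.26, SE 0.0558, edgeR adjusted p = 0.00172).

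Of 22 genes tested from the planar cell polarity and calcium arm, 9 rose and 6 fell (68.2% called, against 67.2% of all genes tested). CAMK2D, a calcium-dependent kinase, rose by 0.70 (SE 0.0462, edgeR adjusted p = 1.9e-07) and DAAM1, which links Dishevelled to RHOA, also rose (2.0-fold, SE 0.0737 on the log2 scale, edgeR adjusted p = 4.48e-07). PRICKLE3 fell (−0.74, SE 0.1, edgeR adjusted p = 5.65e-05), as did the small GTPase RAC1 (−0.36, SE 0.0521, edgeR adjusted p = 9.62e-05).

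Of 17 genes tested that are known as Wnt targets in other cell types, 6 rose and 7 fell (76.5% called, against 67.2% of all genes tested). CCND1, which encodes cyclin D1, had 483, 481 and 477 CPM in the knockdown libraries and 324, 317 and 334 CPM in the controls (0.56, SE 0.0391, edgeR adjusted p = 2.73e-07). TBX3, a transcription factor, rose by 1.12 (SE 0.0639, edgeR adjusted p = 5.94e-08). CD44, a cell surface receptor, had 1143, 1168 and 1175 CPM in the knockdown and 2323, 2344 and 2164 CPM in the controls (−0.97, SE 0.0437, edgeR adjusted p = 1.06e-08). ETS2, a transcription factor, fell (−1.55, SE 0.0413, edgeR adjusted p = 2.99e-10), as did MYC, named here after its values were seen (−0.64, SE 0.0474, edgeR adjusted p = 4.62e-07). Among the 17, the median log2 fold change was −0.02. Of the genes named from these lists by rule, SHISA2, CSNK1D, APC2, BCL9, PRICKLE3, RAC1 and CCND1 did not pass against a 1.5-fold change (edgeR adjusted p from 0.0997 for PRICKLE3 to 1).

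**Figure D5:**
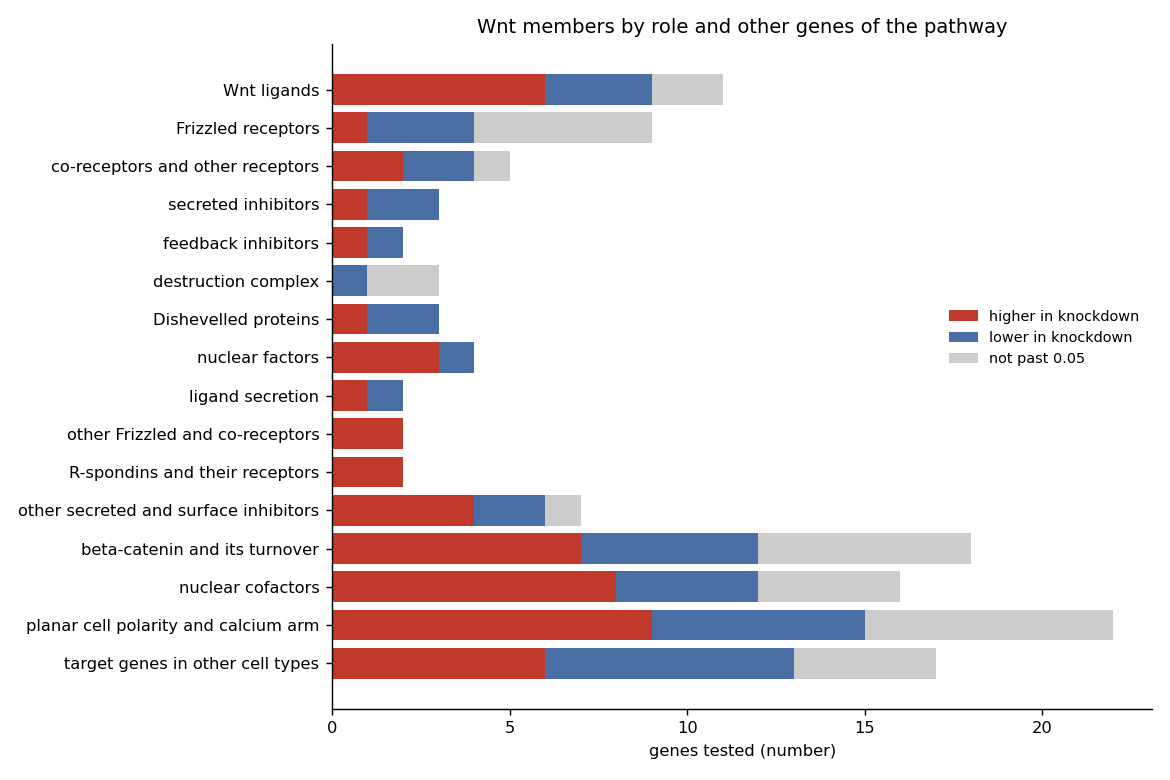
Number of genes tested in each role of the Wnt members and in each list of other pathway genes, split into higher, lower and not past an adjusted p of 0.05. In the 5 longest bars (11 to 22 genes) 6 to 9 genes were higher and 3 to 7 lower. Over all genes tested, 33.1% were higher and 34.2% lower.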

How the data were processed

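Poly(A) RNA of 6 PANC-1 libraries was analysed. Reads were aligned with GSNAP to GRCh38, per the submitters' processing notes. Per the file headers, the deposited counts are reads aligned uniquely to each gene model, and the deposited RPKM were adjusted by the authors with a size factor whose method is not given in the sources used here, nor are the strand setting and annotation release. Counts served for the tests and RPKM for levels between genes. Symbols came from RefSeq (GRCh38.p14) for 27814 of 30727 gene IDs. edgeR 4.0.16 in R 4.3.3 filtered the counts by filterByExpr, normalized them by TMM, and ran its two-sided quasi-likelihood test on 15190 genes with Benjamini-Hochberg adjustment. The filter asked for 15 reads in total and, in at least 3 libraries of either group, the CPM that 10 reads make at the median library size. WNT16 and LGR6 passed it only through the knockdown libraries, and WNT2B and PYGO1 only through the controls. The script was tested on simulated data. The alternatives used DESeq2 1.42.0, limma 3.58.1 (voom), other scalings and filters, glmTreat, thinning to equal depth, and leaving out each library. No pair of libraries agreed within sampling noise. The members and lists were chosen with earlier results of these data known. All members may be named, and of each other list the 2 genes with the smallest p that rose and the 2 that fell; others are said to be named after their values were seen. Fold changes are knockdown over control, and SE refers to their log2 values. Depth limits the precision of genes with few reads.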

Additional observations from a re-analysis of the deposited data

How the results depend on the processing

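Of the members tested, 28 to 36 passed the threshold under the alternatives other than the test against a 1.5-fold change, which left 13 members (8 higher, 5 lower) and 2998 genes (19.7%). The 28 were of 34 members tested with a minimum mean log2 CPM of 1, where 70.7% of all genes tested were called. With no filter 34 of 45 members passed, against 44.1% of all genes tested. Leaving out 1 library in turn gave 30 to 36 of 42 members (14 to 19 higher, 15 to 17 lower) and 9184 to 11277 genes (59.9% to 73.1% of all genes tested). The share of higher genes among those called stayed between 49.0% and 53.6% under all 15 alternatives. Over members and alternatives, 571 values kept direction and side of the threshold, 27 lost the call (19 of them in the test against a 1.5-fold change), 15 gained it and 9 changed sign.

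Median log2 fold changes by role rest on few genes. For the ligands the median was 1.09 with no filter and −0.0093 with a minimum mean log2 CPM of 1, against 0.53 as reported. For the Frizzled receptors it was −0.0948 by library size alone, −0.34 with the minimum and −0.0852 with thinned libraries, against −0.12. It was −0.37 by library size alone for the secreted inhibitors, −0.38 with no filter for the feedback inhibitors (NKD1 then entered), and 0.66 with the minimum for the nuclear factors. Leaving out 1 library gave −0.1377 to −0.0888 for the Frizzled receptors, 0.0967 to 0.2239 for the co-receptors and −0.2768 to 0.0865 for the destruction complex. The sign turned for 3 genes that did not pass: WNT10B was 0.0909 with thinned libraries and −0.1368 to 0.1258 with 1 library left out, FZD4 was −0.0005 with no filter and −0.0528 to 0.0525, and AXIN2 was −0.2768 to 0.0865. The cause was not tested where none is given. No paired analysis was possible because the labels give no replicate numbers. Depth limits the members with under 150 reads in either group (WNT2B, WNT4, WNT5A, WNT11, WNT16, FZD3, FZD8, AXIN2 and LEF1) and the genes below the filter.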
